A study of Homo sapiens with 24 samples.

Results

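A set of 50 genes that type I interferon is known to induce, outside the IFIT and OAS families, was followed across 8 populations of breast cancer cells. The members were fixed as a list of gene symbols, and all 50 were found by name, with 1 row each among the 29744 genes measured. The study compared cells whose genome had doubled with the aneuploid parental cells they came from, in HCC1806 and MDA-MB-231, which are established human triple-negative breast cancer cell lines. Cells had doubled through fusion with one another, through mitotic slippage (exit from mitosis with no division) or through failure of cytokinesis (the final splitting of the cell), and the doubled cells were sorted and expanded. Each of the 4 populations of a line (parental control, fusion, slippage, cytokinesis failure) gave 3 biological replicates, 24 libraries in all. RNA was taken 48 hours after seeding and sequenced from the 3′ ends of transcripts (TAGseq). Each route is represented by 1 doubled population per line, so the effect of a route cannot be told apart from that of the population derived by it. The labels do not say whether the replicates of a population came from separate derivations, and the p-values then measure only the spread between these samples.

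Interferon-stimulated genes are switched on when interferon binds its receptor and the kinases JAK1 and TYK2 activate STAT proteins, which join IRF9 and bind a DNA element called the interferon-stimulated response element (ISRE). Their products sense viral nucleic acid, attach the ubiquitin-like protein ISG15 to other proteins, or block viral entry, replication and release. Many of them keep a basal level in cells that were never exposed to interferon, and in tumour cells that level can be set by signalling from DNA or RNA in the cytosol.

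Library totals ran from 3060622 to 4030297 estimated counts in HCC1806 and from 2455707 to 3837957 in MDA-MB-231, and the 50 genes together took 0.159% to 0.181% and 0.197% to 0.245% of them. After the filter on low counts, 38 members were tested in HCC1806 and 45 in MDA-MB-231, 37 of them in both. MX2 was tested in HCC1806 only, and IRF9, HERC5, ISG20, GBP1, TRIM21, IFI27, IFI44L and XAF1 in MDA-MB-231 only. RSAD2, CMPK2, RTP4 and TRIM22 were too low for a test in either line. RSAD2, the antiviral enzyme viperin, had 0 counts in all 12 HCC1806 libraries, which allows up to 0.0698 CPM (counts relative to the library total, the usual unit of expression) over the line, and 61 counts in all in MDA-MB-231. The HCC1806 libraries expressed basal epithelial markers (6 genes, summed 1288 to 1596 CPM) and the MDA-MB-231 libraries mesenchymal ones (5 genes, summed 3069 to 3591 CPM), as the lines are known to do. In MDA-MB-231, slippage replicate 3 and cytokinesis failure replicate 1 differed more from their fellow replicates than any other library did.

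The promoters of the members were searched for the ISRE. The list holds genes known to be induced by interferon, which acts through this element, so an excess of it was built into the choice. A RefSeq promoter window (GRCh38.p14, 250 bases before to 50 after the start of the gene) was found for 45 of the 50 members, with DDX58 listed under its newer symbol RIGI. The core of the ISRE, GAAANNGAAA on either strand, was present in 27 of these 45 windows (60%), against 996 of 27305 windows of that length over all genes (3.65%). In 25 of the 27, at least 1 match lay upstream of the start. The 5 members with a match that were called in the most comparisons against control are shown, ties being settled by the smallest adjusted p. IFI16 was called in 4 of these comparisons, more than any other member, and had no match, so it is not shown. Each sequence runs from 170 bases before the start to 10 after it, 5′ to 3′ on the strand of the gene, with matches to the core in capitals.
ISG15, chr1:1013327-1013506, plus strand: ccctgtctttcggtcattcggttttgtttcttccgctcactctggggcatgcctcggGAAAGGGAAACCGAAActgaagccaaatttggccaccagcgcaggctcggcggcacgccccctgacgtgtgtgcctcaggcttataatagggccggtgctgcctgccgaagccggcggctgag
IFITM1, chr11:313870-314049, plus strand: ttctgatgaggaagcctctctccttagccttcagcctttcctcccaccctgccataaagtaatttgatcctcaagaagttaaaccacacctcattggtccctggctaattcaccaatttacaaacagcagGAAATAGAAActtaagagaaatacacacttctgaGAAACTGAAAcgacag
SAMD9, chr7:93117970-93118149, minus strand: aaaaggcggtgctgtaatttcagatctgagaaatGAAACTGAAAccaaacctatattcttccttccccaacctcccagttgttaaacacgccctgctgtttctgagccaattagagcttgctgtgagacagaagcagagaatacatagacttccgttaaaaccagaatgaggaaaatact
BST2, chr19:17405621-17405800, minus strand: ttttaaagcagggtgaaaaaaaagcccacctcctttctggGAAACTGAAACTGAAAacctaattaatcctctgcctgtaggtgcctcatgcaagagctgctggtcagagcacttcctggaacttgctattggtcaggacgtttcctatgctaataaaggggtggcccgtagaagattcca
IFI44, chr1:78649619-78649798, plus strand: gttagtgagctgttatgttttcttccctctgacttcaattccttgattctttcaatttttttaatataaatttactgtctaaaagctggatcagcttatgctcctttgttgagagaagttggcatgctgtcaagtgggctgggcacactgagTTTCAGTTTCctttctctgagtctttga
ISG15 and BST2 each held 2 matches that share 4 bases, starting 113 and 107 bases (ISG15) and 130 and 124 bases (BST2) before the start. IFITM1 had 2 separate matches, the nearer one beginning 6 bases before the start, and IFI44 had its single match on the other strand. A match is a description of the letters and does not show that the element is used in these cells.

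**Figure D1:**
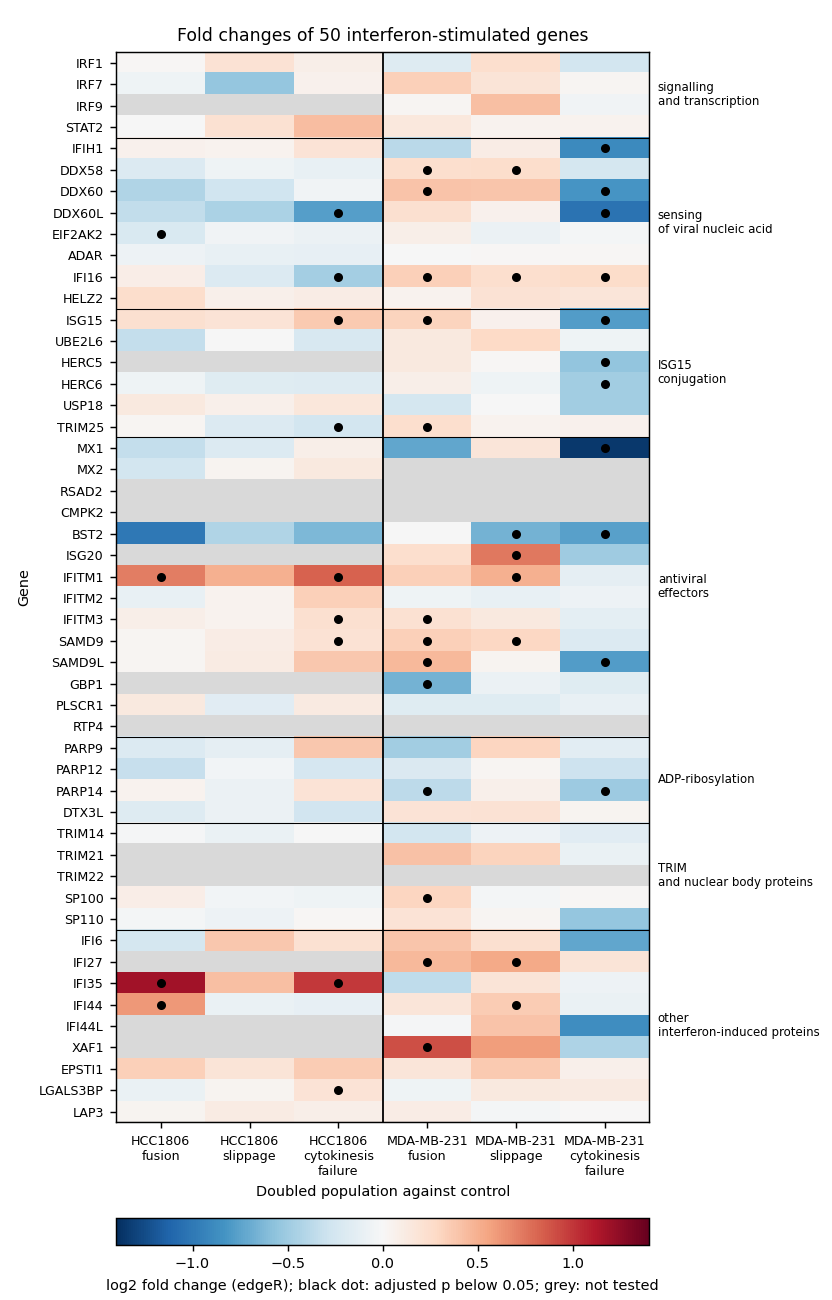
Log2 fold change (colour, edgeR) of each of the 50 genes (rows, by role) in each doubled population against the control of its line (columns). Black dots mark the 45 calls at an adjusted p below 0.05 and grey cells were not tested. MDA-MB-231 cytokinesis failure holds 10 of its 11 dots in blue (lower) cells, while the fusion and slippage columns of that line hold 18 of 21 in red (higher) ones.

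In MDA-MB-231 cells doubled by cytokinesis failure, more members fell than rose. Of the 45 tested, 10 were lower and 1 was higher than in the control at an adjusted p below 0.05 (edgeR's quasi-likelihood test, Benjamini-Hochberg adjustment over all genes), while 2.35% of all tested genes were called lower and 2.29% higher. The median log2 fold change of the 45 was -0.15, against -0.0017 for all genes, and 33 of the 45 fold changes were negative. The sensors IFIH1, DDX60 and DDX60L, the ISG15 group (ISG15, HERC5 and HERC6), the effectors MX1, BST2 and SAMD9L, and PARP14 were the 10 that fell. In the ISG15 conjugation group, 3 of 6 tested members fell, and in the signalling group (IRF1, IRF7, IRF9, STAT2) none of 4 was called in either direction.

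ISG15, the ubiquitin-like protein that is attached to target proteins, stood at 82.7, 64.1 and 76.7 CPM (scaled by TMM) in the 3 control libraries and at 46.5, 44.1 and 40.6 after cytokinesis failure. All 3 doubled libraries lay below all 3 control libraries. The log2 fold change was -0.78 ± 0.11 (SE, n = 3 against 3; edgeR adjusted p = 4.96e-06). HERC5, the ligase that attaches ISG15, fell by 0.55 ± 0.15 on the log2 scale (edgeR adjusted p = 0.031), and its neighbour HERC6 fell by 0.48 ± 0.14 (edgeR adjusted p = 0.0382).

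DDX60, a helicase linked to RNA sensing, had 28.4, 26.9 and 24.4 CPM in the control and 16.1, 15.9 and 13.2 after cytokinesis failure, with no overlap. Its log2 fold change was -0.83 ± 0.15 (n = 3 against 3; edgeR adjusted p = 0.000199). IFIH1, the sensor of long double-stranded RNA also called MDA5, had 19.8, 15.3 and 20.3 CPM in the control and 11.9, 8.21 and 10.5 after cytokinesis failure. These groups did not overlap either, with a log2 fold change of -0.89 ± 0.18 (n = 3 against 3; edgeR adjusted p = 0.00116). DDX60L, the paralogue beside DDX60, had 10.1, 9.07 and 8.67 CPM in the control and 5.35, 3.85 and 4.57 after cytokinesis failure, a fold change of -1.04 ± 0.29 on the log2 scale (edgeR adjusted p = 0.0297). IFI16, a sensor of nuclear and cytosolic DNA, was the only member of the 45 called higher, by 0.26 ± 0.07 on the log2 scale (edgeR adjusted p = 0.0272).

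BST2, or tetherin, which holds budding virus at the cell surface, had 92.8, 91.4 and 94.3 CPM in the control and 50.6, 55.7 and 56.7 after cytokinesis failure. The log2 fold change was -0.76 ± 0.10 (n = 3 against 3; edgeR adjusted p = 3.24e-07), the smallest p among the members. SAMD9L, an antiviral protein that also restrains cell growth, had 35.9, 30.04 and 29.5 CPM in the control and 22.2, 19.5 and 14.8 after cytokinesis failure, a log2 fold change of -0.78 ± 0.15 (edgeR adjusted p = 0.000344). Its neighbour SAMD9 had a log2 fold change of -0.19 ± 0.09 that did not pass the test (edgeR adjusted p = 0.309). MX1, a GTPase that blocks virus replication, was measured at low depth: its 3 control libraries held 19, 12 and 14 counts and its cytokinesis failure libraries 1, 6.86 and 8.94. Its log2 fold change of -1.35 ± 0.41 was the largest in size among the calls of this comparison and lay near the threshold (edgeR adjusted p = 0.046). PARP14, an ADP-ribosyltransferase, fell by 0.51 ± 0.11 on the log2 scale (edgeR adjusted p = 0.00338).

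BST2, ISG15, DDX60, SAMD9L and IFIH1 kept their calls under every alternative tried for them, and PARP14 lost its call only with limma on TPM (adjusted p of 0.0991 and 0.103). The calls of MX1 (without any control replicate or cytokinesis failure replicate 1 or 2, adjusted p 0.0766 to 0.226), DDX60L (without any control replicate or cytokinesis failure replicate 2 or 3, 0.07 to 0.159), HERC5 (without control replicate 2 or 3 or cytokinesis failure replicate 2 or 3, 0.0638 to 0.207), HERC6 (without control replicate 1 or 2 or any cytokinesis failure replicate, 0.0846 to 0.244) and IFI16 (without control replicate 1 or 3 or cytokinesis failure replicate 1 or 3, 0.0678 to 0.263) were lost when 1 library was left out. HERC5 (adjusted p 0.0867 to 0.183) and IFI16 (0.103 to 0.11) were also lost with DESeq2 and limma on TPM. HERC6 (0.0569 to 0.183) was lost with these, the replicate block and without the noisier pair. DDX60L (0.234 to 0.278) was lost with limma on TPM. MX1 (0.0514 to 0.161) was lost with limma on log2(TPM + 0.1), the replicate block, the 6 libraries alone and without the noisier pair. Without control replicate 1, 2 or 3, 7 members were called in place of 11, and without the pair of noisier libraries 9.

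The per-library values of ISG15 are given because of its change in both lines, a choice made after its values were seen. The members that fell together include neighbours on a chromosome, so they are not independent of each other. HERC6 and HERC5 lie side by side on chromosome 4 (88378852 to 88506163, GRCh38), and DDX60 and DDX60L on the same chromosome (168216294 to 168480492). Around HERC6 and HERC5, none of the 19 other genes tested within 5 Mb was called in this comparison (median log2 fold change -0.09). Around DDX60 and DDX60L, 1 of 18 was called lower (median 0.02). None of 42 was called around ISG15 (median -0.02), and 3 of 134 were called higher and 2 lower around BST2 (median 0.02).

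**Figure D2:**
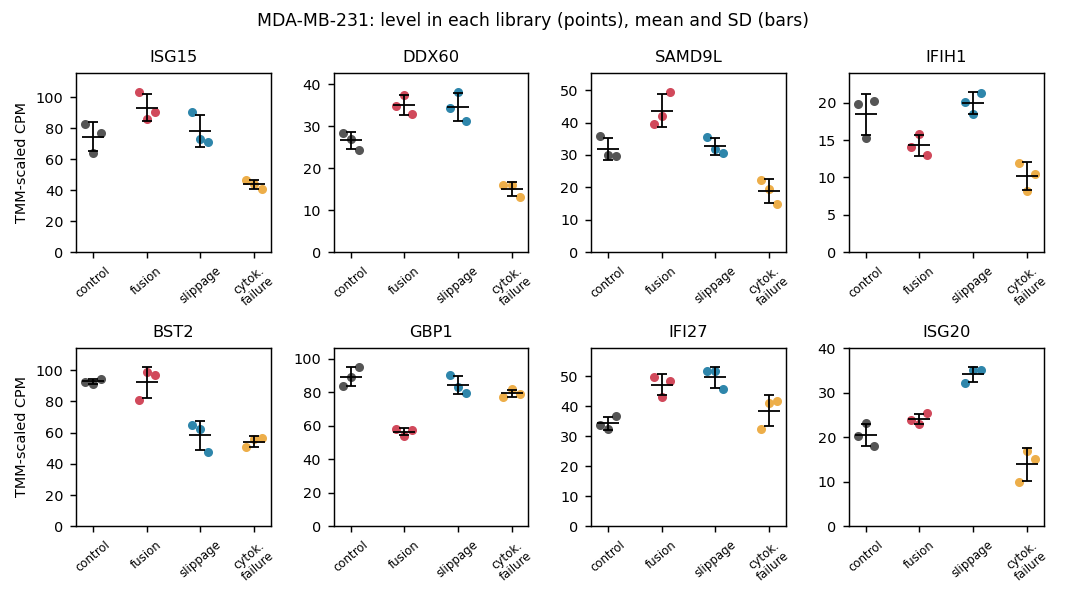
TMM-scaled CPM of 8 genes in each MDA-MB-231 library (points, 3 per population), with mean and SD (bars). ISG15, DDX60 and SAMD9L are lowest after cytokinesis failure and highest on average after fusion, BST2 is low after slippage and cytokinesis failure, and GBP1 is low after fusion.

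After fusion of MDA-MB-231 cells, 11 of the 45 members rose and 2 fell, against 9.34% of all tested genes called higher and 8.11% lower. The median log2 fold change of the members was 0.14, and that of all genes -0.0025. Those that rose were the sensors IFI16, DDX60 and DDX58, the ISG15 group members ISG15 and TRIM25, the effectors IFITM3, SAMD9 and SAMD9L, the nuclear body protein SP100, and IFI27 and XAF1. GBP1 and PARP14 fell.

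GBP1, a GTPase that attacks the membranes of intracellular pathogens, had 83.9, 89.2 and 95.4 CPM in the control and 58.0, 54.2 and 57.7 after fusion. The groups did not overlap, and the log2 fold change was -0.66 ± 0.08 (n = 3 against 3; edgeR adjusted p = 1.45e-07). IFI27, an interferon-induced mitochondrial protein, had 33.6, 32.5 and 36.8 CPM in the control and 49.8, 43.2 and 48.4 after fusion, a log2 fold change of 0.45 ± 0.11 (edgeR adjusted p = 0.00353). SAMD9L rose to 39.7, 42.0 and 49.3 CPM, above every control library, by 0.46 ± 0.12 (edgeR adjusted p = 0.00737). XAF1, a proapoptotic antagonist of the inhibitor XIAP, had 15, 13 and 17 counts in the control libraries and 18, 29 and 31 after fusion, a log2 fold change of 0.90 ± 0.29 (edgeR adjusted p = 0.0269).

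The other changes after fusion were smaller. IFI16 rose by 0.33 ± 0.07 on the log2 scale (edgeR adjusted p = 0.000861), SAMD9 by 0.34 ± 0.09, SP100 by 0.30 ± 0.08 and TRIM25, the ligase that activates the RNA sensor RIG-I, by 0.24 ± 0.07. IFITM3, which blocks fusion of virus with endosomes, had 309.0, 319.7 and 319.9 CPM in the control and 360.1, 368.1 and 370.4 after fusion, a log2 fold change of 0.21 ± 0.05 (edgeR adjusted p = 0.0044). ISG15 (103.0, 86.1 and 90.6 CPM) rose by 0.32 ± 0.09 and DDX60 (34.8, 37.4 and 32.9 CPM) by 0.40 ± 0.13, both opposite in sign to cytokinesis failure. DDX58, which encodes RIG-I, rose by 0.24 ± 0.08 (edgeR adjusted p = 0.0328), and PARP14 fell by 0.37 ± 0.11 (edgeR adjusted p = 0.0193).

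This comparison depended on the scaling. With limma on log2(TPM + 1), the median of all genes moved to -0.11, 1 member was called higher and 3 lower, and over all genes 312 of 1706 calls were in the higher direction against 1067 of 1993 with edgeR. With the same values centred on the median of all genes, 5 members were called higher and 1 lower. GBP1 and IFI27 kept their calls in every alternative. IFI16, IFITM3 and SP100 lost theirs only on uncentred TPM. XAF1 (without any control replicate or fusion replicate 2 or 3, adjusted p 0.0616 to 0.123), DDX58 (any control replicate or fusion replicate 1, 0.0604 to 0.176), DDX60 (control replicate 2 or 3 or fusion replicate 2, 0.0509 to 0.11), ISG15 (control replicate 2 or fusion replicate 1, 0.129 to 0.146), PARP14 (control or fusion replicate 1 or 2, 0.0678 to 0.116), SAMD9L (control or fusion replicate 3, 0.0526 to 0.0729), SAMD9 (control replicate 1, 0.0597) and TRIM25 (fusion replicate 2, 0.0509) lost theirs without 1 library. DDX58 (0.111 to 0.471), DDX60 (0.062 to 0.191), ISG15 (0.0608 to 0.146) and XAF1 (0.0528 to 0.12) were also lost with DESeq2 and on TPM, centred or not. SAMD9 (0.0568 to 0.236), SAMD9L (0.07 to 0.18) and TRIM25 (0.0661 to 0.359) were also lost on TPM, centred or not. PARP14 (0.0897 to 0.0926) was also lost with DESeq2 and on centred TPM. Without control replicate 2, 8 members were called.

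Genes around some of these members moved with them after fusion in MDA-MB-231. Of the 42 other genes tested within 5 Mb of ISG15 on chromosome 1 (gene at 1013497 to 1014540), 17 were called higher and none lower, with a median log2 fold change of 0.37, so that ISG15 at 0.32 was not above its surroundings. Around DDX60 and DDX60L, 5 of 18 were called higher and none lower (median 0.23). Around GBP1 (chromosome 1, 89052319 to 89065208), 12 of 42 were called lower and none higher (median -0.16). Around IFI16 and XAF1 the surroundings were lower (17 of 91 and 26 of 104 called lower, medians -0.11 and -0.18) while the members themselves were higher. Around IFI27, 4 of 36 were called higher (median 0.06). The copy number of these regions was not analysed here.

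Slippage raised 7 of the 45 members and lowered 1 in MDA-MB-231, where 3.27% of all tested genes were called higher and 2.91% lower. The median log2 fold change of the members was 0.14, that of all genes 0.0013, and 35 of the 45 fold changes were positive. ISG20, IFI27, IFI44, IFITM1, IFI16, SAMD9 and DDX58 rose, and BST2 fell.

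ISG20, an exonuclease that degrades RNA, had 20.4, 23.2 and 18.2 CPM in the control and 32.2, 35.2 and 35.2 after slippage. The groups did not overlap, and the log2 fold change was 0.74 ± 0.14 (n = 3 against 3; edgeR adjusted p = 0.000349). BST2 had 64.7, 62.5 and 47.8 CPM after slippage, below every control library, a log2 fold change of -0.67 ± 0.09 (edgeR adjusted p = 3.74e-06). Its lowest value was in replicate 3, 1 of the pair of noisier libraries. IFI27 had 51.7, 51.8 and 45.7 CPM after slippage, a rise of 0.53 ± 0.11 (edgeR adjusted p = 0.00132).

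IFITM1, a membrane protein that blocks virus entry at the cell surface, had 21.0, 18.2 and 20.3 CPM in the control and 25.5, 27.3 and 31.3 after slippage, a log2 fold change of 0.50 ± 0.14 (edgeR adjusted p = 0.0201). IFI44 rose by 0.36 ± 0.09 on the log2 scale (edgeR adjusted p = 0.0111), SAMD9 by 0.29 ± 0.09 (edgeR adjusted p = 0.0405), DDX58 by 0.25 ± 0.08 (edgeR adjusted p = 0.0493) and IFI16 by 0.23 ± 0.07 (edgeR adjusted p = 0.0397). BST2 and IFI27 kept their calls in every alternative, and ISG20 lost its only with limma on log2(TPM + 0.1) (adjusted p = 0.0557). IFITM1 (0.0578 to 0.121 without slippage replicate 3 or control replicate 2 or 3), IFI44 (control replicate 1 or slippage replicate 3, 0.0712 to 0.0803), SAMD9 (control replicate 1 or 2 or slippage replicate 2 or 3, 0.0766 to 0.231), DDX58 (any control replicate or slippage replicate 2 or 3, 0.103 to 0.284) and IFI16 (control replicate 1 or 3 or any slippage replicate, 0.0587 to 0.293) lost theirs without 1 library (adjusted p in parentheses). DDX58, IFI16 and SAMD9 were also lost with DESeq2 and limma on TPM, and IFI44 and IFITM1 with limma on TPM. The replicate block cost DDX58 and IFI16 their calls, RLE size factors DDX58 and no count filter IFI16. DDX58, SAMD9 and IFITM1 were lost without the noisier pair. Adjusted p in these settings ran from 0.0504 (IFI16) to 0.327 (SAMD9). Without slippage replicate 3 or control replicate 1, 4 members were called, without control replicate 2 or 3 or slippage replicate 2, 5, and without the pair of noisier libraries 6.

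The 3 doubled populations of a line share its control libraries, so their changes against control are not independent. In MDA-MB-231, DDX60, ISG15 and SAMD9L were called higher after fusion and lower after cytokinesis failure, BST2 lower after slippage and cytokinesis failure, and PARP14 lower after fusion and cytokinesis failure. IFI16 was called higher in all 3 doubled populations.

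The test among the 3 doubled populations does not compare them with the control. The control libraries still enter its filter, scaling and estimate of spread. In MDA-MB-231, 27 of 45 members differed among them (60%), against 25.2% of all tested genes. By mean CPM, the cytokinesis failure population was the lowest of the 3 in 21 of these 27 and the highest in none, fusion was the highest in 14 and slippage in 13. The 27 were picked by a test on the same libraries, and the order over all called genes was not counted. The 6 members of smallest adjusted p were ISG15 (edgeR adjusted p = 7.67e-10), DDX60 (2.5e-09), SAMD9L (1.95e-08), BST2 (3.57e-08), ISG20 (9.51e-08) and GBP1 (2.31e-06), and each kept its call in every alternative. ISG20 had 23.9, 23.1 and 25.4 CPM after fusion, 32.2 to 35.2 after slippage and 9.88, 16.9 and 15.04 after cytokinesis failure, 3 groups with no overlap. GBP1 had 90.3, 83.3 and 79.7 CPM after slippage and 77.4, 81.9 and 78.97 after cytokinesis failure, both above all fusion libraries. IRF1, a transcription factor and the one member of the signalling group that differed, had 31.8, 32.6 and 38.2 CPM after fusion, 45.0, 44.5 and 46.9 after slippage, and 30.9, 36.7 and 29.0 after cytokinesis failure (edgeR adjusted p = 0.00223).

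Immune cell markers moved in MDA-MB-231 too: the sum of 10 such genes was 73.1 to 79.6 CPM in the control libraries, 93.5 to 115.7 after fusion, 119.2 to 126.1 after slippage and 112.4 to 131.3 after cytokinesis failure. Among those genes CD3E, ITGAM and TYROBP were at 0 counts in all 4 populations. This sum was higher in each doubled population, also where the members fell, and its part in the results was not tested. In HCC1806 it was 35.1 to 37.5 CPM in the control, 35.1 to 38.6 after fusion, 28.7 to 31.4 after slippage and 25.2 to 29.7 after cytokinesis failure.

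HCC1806 cells gave fewer changes, and the largest number after cytokinesis failure. There 6 of the 38 tested members rose and 3 fell, against 8.37% of all tested genes called higher and 8.63% lower. Their median log2 fold change was 0.09, that of all genes 0.0016. IFITM1, IFITM3, ISG15, SAMD9, LGALS3BP and IFI35 rose, while IFI16, TRIM25 and DDX60L fell.

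IFI16 had 56.6, 62.0 and 61.3 CPM in the control and 44.8, 41.5 and 42.7 after cytokinesis failure in HCC1806. The groups did not overlap, and the log2 fold change was -0.48 ± 0.09 (n = 3 against 3; edgeR adjusted p = 3.57e-05). IFITM1 had 13.6, 8.62 and 10.9 CPM in the control and 24.4, 15.4 and 19.5 after cytokinesis failure, a log2 fold change of 0.83 ± 0.18 (edgeR adjusted p = 0.000231). IFITM3 had 223.1, 221.8 and 228.9 CPM in the control and 257.8, 270.7 and 259.9 after cytokinesis failure, a smaller rise of 0.23 ± 0.05 (edgeR adjusted p = 0.000388). LGALS3BP, a secreted glycoprotein that binds galectins, had 240.0, 245.0 and 243.1 CPM in the control and 281.4, 279.0 and 268.3, a rise of 0.19 ± 0.05 (edgeR adjusted p = 0.00323). Of 115 other genes tested within 5 Mb of LGALS3BP, 21 were called higher and 2 lower (median 0.10).

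DDX60L had 10.3, 11.3 and 9.57 CPM in the HCC1806 control and 8.72, 4.96 and 4.45 after cytokinesis failure, a log2 fold change of -0.77 ± 0.23 (edgeR adjusted p = 0.0101). TRIM25 had 96.1, 97.5 and 97.3 CPM in the control and 85.2, 79.5 and 77.8 after cytokinesis failure, a log2 fold change of -0.26 ± 0.07 (edgeR adjusted p = 0.00437). ISG15 rose by 0.37 ± 0.12 (edgeR adjusted p = 0.0184), from 27.5, 27.2 and 30.3 CPM to 37.4, 38.6 and 34.1. SAMD9 rose by 0.20 ± 0.07 (edgeR adjusted p = 0.0282). IFI35, a leucine zipper protein, rose by 0.99 ± 0.36 (edgeR adjusted p = 0.042) from 8, 6 and 9 counts to 17, 19 and 16.

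IFI16, IFITM1, IFITM3 and LGALS3BP kept their calls in every alternative. TRIM25 lost its call only with DESeq2 and on TPM (adjusted p 0.0524 to 0.149). DDX60L (0.0898 to 0.111) was also lost with DESeq2 and on TPM, and ISG15 (0.127) with DESeq2. IFI35 (0.07 to 0.185) was lost with DESeq2 and with no count filter. SAMD9 (0.0522 to 0.176) was lost with DESeq2, on TPM and with no count filter. DDX60L (without cytokinesis failure replicate 2 or 3, adjusted p 0.067 to 0.103), ISG15 (control or cytokinesis failure replicate 1 or 2, 0.0622 to 0.0796), SAMD9 (control or cytokinesis failure replicate 1 or 3, 0.062 to 0.24) and IFI35 (any of the 6 libraries, 0.0572 to 0.135) lost theirs without 1 library.

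**Figure D3:**
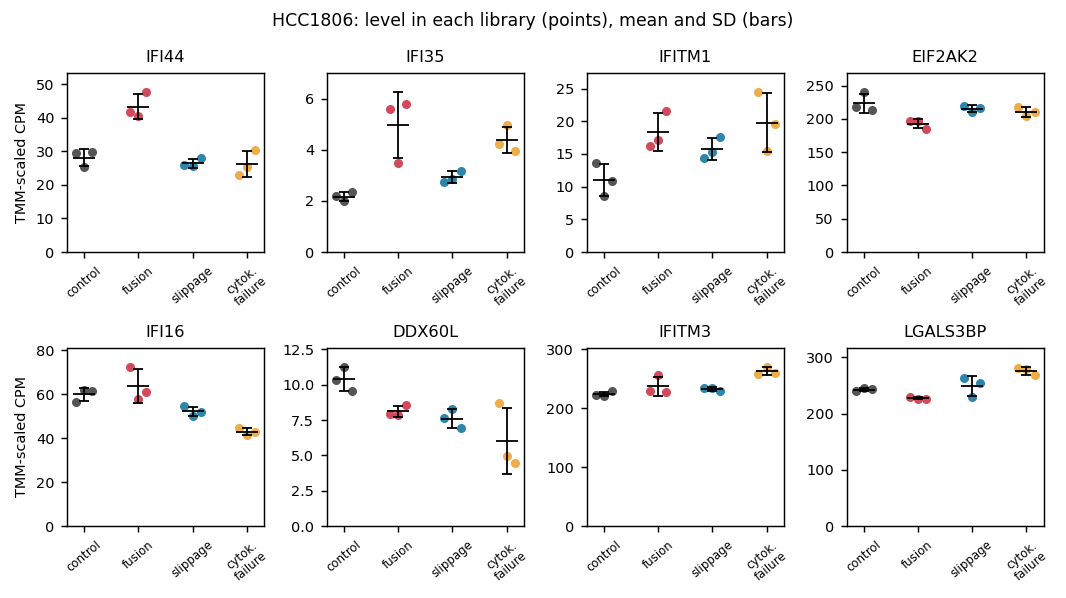
TMM-scaled CPM of 8 genes in each HCC1806 library (points, 3 per population), with mean and SD (bars). IFI44 is high only in the 3 fusion libraries (40.6 to 47.5 CPM), IFITM1 and IFI35 are above the control libraries after fusion and cytokinesis failure, and IFI16 is lowest after cytokinesis failure.

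After fusion of HCC1806 cells, 3 of the 38 members rose and 1 fell, against 5.33% of all tested genes called higher and 5.55% lower. Members had a median log2 fold change of -0.01, that of all genes -0.0031. IFI44, a protein that assembles into cytoplasmic structures after interferon, had 29.4, 25.2 and 29.7 CPM in the control and 41.6, 40.6 and 47.5 after fusion. Its log2 fold change was 0.61 ± 0.12 (n = 3 against 3; edgeR adjusted p = 4.89e-05), kept in every alternative, with 0 of 12 other genes within 5 Mb called higher and 1 lower.

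IFITM1 had 16.2, 17.1 and 21.6 CPM after fusion of HCC1806 cells, above every control library (8.62 to 13.6), with a log2 fold change of 0.71 ± 0.18 (edgeR adjusted p = 0.00406). IFI35 had 19, 12 and 19 counts against 8, 6 and 9 in the control, a log2 fold change of 1.17 ± 0.36 (edgeR adjusted p = 0.0205). EIF2AK2, or PKR, the kinase that stops translation on sensing double-stranded RNA, had 217.7, 239.7 and 212.6 CPM in the control and 196.4, 196.2 and 185.0 after fusion, a log2 fold change of -0.21 ± 0.05 (edgeR adjusted p = 0.00356). Around EIF2AK2 on chromosome 2 (37099210 to 37156980), 5 of 31 other genes within 5 Mb were called lower and none higher (median -0.12). The calls of IFI35 (without any control replicate or fusion replicate 1 or 3, adjusted p 0.0536 to 0.105), EIF2AK2 (without control replicate 2, 0.0631) and IFITM1 (without fusion replicate 3, 0.0666) were lost without 1 library, and without control replicate 2 or fusion replicate 3, 2 members were called in place of 4. IFITM1 was also lost on TPM (0.079 and 0.0824). Within 5 Mb of the IFITM genes, 5 of 41 other genes were called higher and none lower (median 0.09).

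Slippage changed none of the 38 members detectably in HCC1806. With edgeR 0 were called higher and 0 lower, where 1.53% of all tested genes were called higher and 1.81% lower. At an unadjusted p below 0.05, 3 members passed (14.4% of all genes did), and DESeq2 and limma called 0 as well. Members had a median log2 fold change of -0.04, that of all genes 0.0018. IFITM1 had 14.4, 15.3 and 17.6 CPM after slippage, above every control library, with a log2 fold change of 0.50 ± 0.19 that did not pass the test (edgeR adjusted p = 0.154).

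Among the 3 doubled HCC1806 populations, 9 of 38 members differed (23.7%), near the 20.2% of all tested genes. IFI44 (edgeR adjusted p = 9.71e-08), IFI16 (2.73e-06), LGALS3BP (2.77e-05), TRIM25 (0.0028), MX2 (0.00369) and IFITM3 (0.0106) had the smallest adjusted p. IFI44 was highest after fusion and at 25.9, 25.5 and 28.0 CPM after slippage. MX2, which blocks nuclear import of viral genomes, had 42.8, 39.5 and 41.8 CPM after fusion and 57.5, 49.3 and 55.8 after cytokinesis failure, with slippage between 44.6 and 53.7. The calls of MX2 and IFITM3 were lost with DESeq2 (adjusted p of 0.0591 and 0.0581), that of IFITM3 also without cytokinesis failure replicate 2 (0.0809), and that of TRIM25 on TPM (0.205 and 0.206).

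By the number of members called, the 2 lines differed most in their response to cytokinesis failure. A test of the difference of the fold changes (HCC1806 minus MDA-MB-231, all 24 libraries in 1 edgeR fit) called 8 of 46 members higher and 2 lower, against 3.31% and 3.22% of all tested genes. ISG15 had a log2 fold change of 0.37 in HCC1806 and of -0.79 in MDA-MB-231, a difference of 1.16 ± 0.16 (adjusted p = 1.64e-07). SAMD9L had 0.37 and -0.79 as well, a difference of 1.16 ± 0.21 (adjusted p = 5.51e-05). IFI16 went the other way, with -0.47 in HCC1806 and 0.25 in MDA-MB-231, a difference of -0.73 ± 0.11 (adjusted p = 1.49e-06).

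IFITM3 (0.23 and -0.14), PARP14 (0.20 and -0.52) and IFITM1 (0.83 and -0.13) also differed between the lines after cytokinesis failure, by 0.37 ± 0.07, 0.71 ± 0.15 and 0.96 ± 0.24 on the log2 scale (edgeR adjusted p of 0.0002, 0.000649 and 0.00389). The remaining calls were IFIH1, MX1 and SAMD9, higher in HCC1806 relative to MDA-MB-231, and TRIM25, lower. DDX60L fell in both lines, by 0.77 and 1.04 on the log2 scale in the fits of each line.

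**Figure D4:**
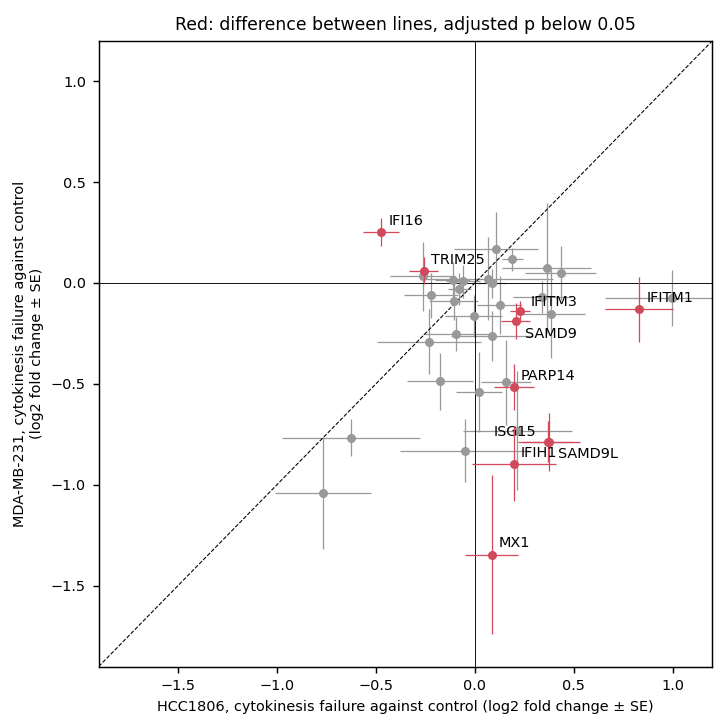
Log2 fold change ± SE of each of the 37 members tested in both lines, cytokinesis failure against control, in HCC1806 (horizontal) and MDA-MB-231 (vertical); the dashed line marks equal change. The 10 red points differ between the lines at an adjusted p below 0.05, with ISG15, SAMD9L, IFIH1 and MX1 far below the line and IFI16 above it.

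For fusion, 2 of 46 members were called higher and 1 lower in the difference between lines, against 5.48% and 6.57% of all tested genes. IFI35 differed by 1.52 ± 0.37 (1.17 in HCC1806, -0.35 in MDA-MB-231; edgeR adjusted p = 0.00234), IFI44 by 0.43 ± 0.15 (0.61 and 0.17; edgeR adjusted p = 0.0409) and EIF2AK2 by -0.29 ± 0.10 (-0.21 and 0.08; edgeR adjusted p = 0.0341). IFI44 lost this call without any of 9 libraries (adjusted p 0.0504 to 0.146) and EIF2AK2 without any of 6 (0.0513 to 0.131). For IFI44 these were the control replicates 1, 2 and 3 and fusion replicates 1 and 3 of HCC1806 and the control replicates 2 and 3 and fusion replicates 1 and 3 of MDA-MB-231; for EIF2AK2, control replicate 2 and fusion replicate 3 of HCC1806 and control replicates 1 and 3 and fusion replicates 2 and 3 of MDA-MB-231. IFI44 (adjusted p 0.0866 to 0.116) and EIF2AK2 (0.0603 to 0.214) were also lost with DESeq2 and limma on TPM, and EIF2AK2 with no count filter. Without control replicate 2 or fusion replicate 3 of HCC1806, or fusion replicate 3 of MDA-MB-231, 1 member was called in place of 3. Other genes within 5 Mb of EIF2AK2 also moved apart after fusion. Their median log2 fold change was -0.12 in HCC1806 (5 of 31 called lower, none higher). In MDA-MB-231 it was 0.27 (8 of 30 called higher, 2 lower). Whether the difference of EIF2AK2 goes beyond that of its surroundings was not tested. For slippage, 0 members were called higher and 1 lower, against 1.66% and 1.88% of all tested genes. That was IFI16, with a difference of -0.43 ± 0.11 (-0.20 in HCC1806, 0.23 in MDA-MB-231; edgeR adjusted p = 0.0136), lost without control replicate 1 of MDA-MB-231 (0.0663).

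The parental lines themselves differed widely. Of 46 members tested, 29 were higher in parental MDA-MB-231 and 11 higher in parental HCC1806, where 37.4% of all genes were called higher and 38.8% lower in MDA-MB-231. The 46 include 8 members, GBP1 among them, that passed the filter within MDA-MB-231 only. MX2 was the 1 member that passed it within HCC1806 only. The direction of these members was largely set by that filter. The median log2 fold change (MDA-MB-231 over HCC1806) was 0.74 for the members and -0.0071 for all genes, the latter moving to 0.12 with limma on log2(TPM + 1). GBP1 had 85.5 ± 5.31 CPM (SD, n = 3, scaled over all 24 libraries) in MDA-MB-231 and 2.17 ± 1.10 in HCC1806, a log2 fold change of 5.27 ± 0.18 (edgeR adjusted p = 3.44e-43). BST2 had 88.7 ± 1.43 and 3.92 ± 1.07 CPM, a log2 fold change of 4.47 ± 0.16 (edgeR adjusted p = 1.53e-41). IFITM2, a paralogue of IFITM3, had 91.8 ± 7.77 and 17.1 ± 1.58 CPM, and DDX58 had 79.4 ± 2.36 and 14.8 ± 2.24 CPM.

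The 2 Mx proteins and PKR ran the other way. MX2 had 520 counts over the 3 parental HCC1806 libraries and 3 over those of MDA-MB-231, a ratio of 186 after scaling (exact binomial 95% interval 63.4 to 906, counting error only). MX1, its neighbour on chromosome 21, had 33.0 ± 3.87 CPM in parental HCC1806 and 4.14 ± 0.94 in parental MDA-MB-231. EIF2AK2 had 233.5 ± 15.6 CPM in HCC1806 and 72.8 ± 4.44 in MDA-MB-231, a log2 fold change of -1.68 ± 0.07 (edgeR adjusted p = 4.16e-38). IFI27, HERC5, ISG20 and XAF1, which were tested only in MDA-MB-231 among the doubled populations, were all higher in parental MDA-MB-231 (log2 fold changes of 4.44, 3.87, 3.78 and 3.28). They were too low in HCC1806 to pass its filter, so this direction follows from how they were picked.

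**Figure D5:**
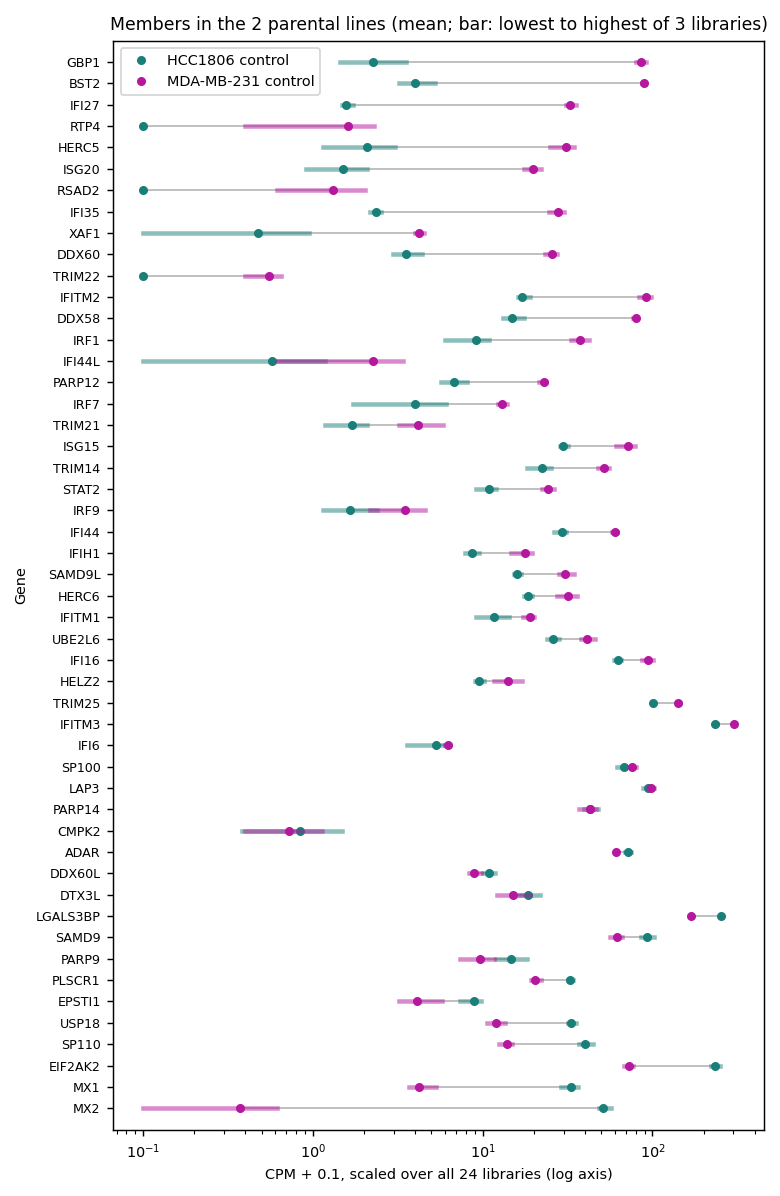
Level of each member in the parental populations of both lines, as CPM + 0.1 scaled over all 24 libraries (log axis); points are means and bars run from the lowest to the highest of 3 libraries. GBP1, BST2 and IFI27 lie far higher in MDA-MB-231, and MX2, MX1 and EIF2AK2 in HCC1806.

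Genes upstream of the members were followed as well. All 9 interferon genes listed (IFNA1, IFNA2, IFNB1, IFNE, IFNK, IFNG, IFNL1, IFNL2, IFNL3) were too low for a test, 5 of them with 0 counts in all 24 libraries and none with more than 5 counts in total. Of 16 receptor, JAK and STAT pathway genes, 14 were tested in HCC1806 and 16 in MDA-MB-231. In HCC1806, PIAS1 (0.41 ± 0.10, edgeR adjusted p = 0.000937), IL10RB (0.48 ± 0.13, 0.00532) and PTPN6 (0.48 ± 0.14, 0.0114) rose after cytokinesis failure. These were 3 of 14 (21.4%), where 8.37% of all tested genes were called higher and 8.63% lower. SOCS3, a feedback inhibitor of JAK kinases, was lower after slippage (-0.76 ± 0.20, edgeR adjusted p = 0.0182). It was 1 of 14 (7.14%), where 1.53% of all tested genes were called higher and 1.81% lower. In MDA-MB-231, 1 of 16 (6.25%) was called against control, PTPN2, a phosphatase of JAK and STAT proteins, after cytokinesis failure (-0.40 ± 0.11, edgeR adjusted p = 0.0279). In that comparison 2.29% of all tested genes were called higher and 2.35% lower. After fusion 0 of the 16 were called, but 15 fold changes were negative (median -0.13). Of 14 further sensors and adaptors, 11 were tested in MDA-MB-231. After fusion 2 of these were called (18.2%), where 9.34% of all tested genes were called higher and 8.11% lower. STING1, the adaptor of cytosolic DNA sensing, was higher (0.43 ± 0.12, edgeR adjusted p = 0.00795). MAVS, the adaptor of RIG-I and MDA5, was lower (-0.18 ± 0.06, edgeR adjusted p = 0.0338). STING1 had 42.6, 47.8 and 40.6 CPM after fusion, 40.4, 41.4 and 41.8 after slippage and 26.8, 23.1 and 26.3 after cytokinesis failure. It differed among the doubled populations (edgeR adjusted p = 3.76e-06). In that test 3 of the 11 sensors and adaptors were called (27.3%), near the 25.2% of all tested genes. None of 10 tested in HCC1806 was called against control.

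Members with and without the ISRE core in their promoter window both took part in the changes. After cytokinesis failure in MDA-MB-231, 8 of 26 tested members with the core fell and 0 rose (median log2 fold change -0.18), and 2 of 16 without it fell and 1 rose (median -0.06). After fusion, 5 of 26 with the core rose and 2 fell (median 0.15), and 6 of 16 without it rose (median 0.14). The difference between members with and without the core was not tested.

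Reads of near-identical or overlapping genes may be shared between them. IFITM1, IFITM2 and IFITM3 lie together on chromosome 11 (307816 to 320860) and had fractional estimated counts, so the split between them is uncertain. PARP9 overlaps DTX3L and CMPK2 overlaps RSAD2 in the annotation, and the strand setting of the counting is not given in the sources used here.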

How the data were processed

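RNA of 24 libraries (8 populations, 3 replicates each) was read by 3′ tag sequencing. STAR, Salmon and the build GRCh38 (hg38) are named in the submitters' processing notes; versions, annotation, trimming, strand setting and any use of molecular identifiers are not given in the sources used here. The deposited tables hold Salmon estimated counts, which the authors did not normalise, and TPM, which the authors scaled to a common total per library. Of the estimated counts 4.41% were not whole; they were rounded for testing, and 53 gene names occurred more than once.

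Genes were filtered (filterByExpr, minimum count 10), scaled by TMM and tested with edgeR's robust quasi-likelihood test (edgeR 4.0.16, R 4.3.3). Each line was fitted on its 12 libraries, and differences between lines and the parental comparison on all 24. P-values were adjusted by Benjamini-Hochberg over all genes tested, a call being an adjusted p below 0.05; a standard error is the log2 fold change divided by the square root of F. The test was also run on counts simulated from its own estimate of spread, with independent replicates. Slippage and cytokinesis failure against control were not among the comparisons simulated. The larger spread of the noisier libraries was not simulated either. Levels are CPM within a line, or over both lines for the parental comparison, and were not compared between genes.

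Alternatives were DESeq2 1.42.0, RLE size factors, limma 3.58.1 on log2 TPM with a pseudocount of 1 or 0.1, a minimum count of 30 or none, a replicate block, the 6 libraries compared alone, and leaving out each library. Centring TPM on the median, leaving out the pair of noisier libraries and describing genes within 5 Mb were added after seeing the data. Every called member was named in each comparison against control; per-library values were given for up to 4 of largest change and 1 member of each role, and up to 6 of smallest adjusted p in the other comparisons. The members and lists were chosen with earlier results of these data known. The low-pass genome sequencing named in the series' design was not analysed here. Values of some listed genes are not reported here.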

Additional observations from a re-analysis of the deposited data

Results flagged for a closer look

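The members below were noted because the test of the difference between the lines (HCC1806 minus MDA-MB-231, log2) passed an adjusted p of 0.05 in edgeR. After cytokinesis failure the difference was 1.16 for ISG15, -0.73 for IFI16, 1.16 for SAMD9L, 0.37 for IFITM3, 0.71 for PARP14 and 0.96 for IFITM1. After fusion it was 1.52 for IFI35, -0.29 for EIF2AK2 and 0.43 for IFI44, and after slippage -0.43 for IFI16. IFI35 rests on 6 to 9 counts per control library in HCC1806. Other genes within 5 Mb of EIF2AK2 differed in the same direction after fusion (medians -0.12 in HCC1806 and 0.27 in MDA-MB-231).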

How the results depend on the processing

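No call with a direction on a named member changed it under any alternative, and 36 of 73 calls on named members were never lost. The 73 hold all 45 calls against control, most of which were lost in at least 1 setting. The rest are up to 6 members of smallest adjusted p from each other comparison, so they were picked for a small p. They include tests among the doubled populations, which have no direction. A setting that gave a member no adjusted p was not counted. The number of members called moved by more than 1.5 times in some settings. With DESeq2 it was 4 (in place of 9) for HCC1806 cytokinesis failure against control, 8 (13) for MDA-MB-231 fusion against control, 3 (8) for MDA-MB-231 slippage against control, 6 (11) for MDA-MB-231 cytokinesis failure against control, 4 (9) for HCC1806 differences among the doubled populations and 1 (3) for the fusion effect, HCC1806 minus MDA-MB-231. With limma on log2(TPM + 1) it was 4 for MDA-MB-231 fusion, 3 for slippage, 6 for cytokinesis failure and 1 for the fusion effect between lines; on log2(TPM + 0.1) it was 4, 2, 5 and 1. For MDA-MB-231 fusion, median-centred TPM gave 6. The median of all genes in that comparison was -0.11 and -0.12 on the TPM scales, and 312 of 1706 and 313 of 1728 calls over all genes were higher; in HCC1806 fusion 234 of 706 were higher, in slippage 21 of 88 and in cytokinesis failure 853 of 1306 on log2(TPM + 1). With DESeq2 648 genes were called in HCC1806 fusion against 1247 with edgeR. The cause of these shifts was not tested. Leaving out 1 library at a time gave 2 to 4 calls for HCC1806 fusion against control, 6 to 8 for HCC1806 cytokinesis failure, 8 to 11 for MDA-MB-231 fusion, 4 to 7 for MDA-MB-231 slippage, 7 to 8 for MDA-MB-231 cytokinesis failure, 1 to 4 for the fusion effect between lines, 0 to 1 for the slippage effect and 7 to 10 for the cytokinesis failure effect. Same-numbered replicates of the control and of each doubled population did not deviate together (correlations -0.085 to 0.077 in HCC1806 and -0.09 to 0.088 in MDA-MB-231). The doubled populations were not correlated with each other. The replicate block gave 6 members for MDA-MB-231 slippage, 9 for MDA-MB-231 cytokinesis failure and 26 among the doubled populations of that line. Depth limits members of low count, such as MX1 (1 to 20 counts per library) and XAF1 (8 to 31) in MDA-MB-231 and IFI35 (6 to 19) in HCC1806.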
